A study of Mus musculus with 79 samples.

Results

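Hmgcs1, Idi1, Fdps, Sqle, Lss, Cyp51, Srebf2 and Insig1 are 8 genes of cholesterol synthesis and its control, chosen by name and followed here in the lungs of mice exposed to cigarette smoke. Each of the 8 had 1 row among the 31350 rows of the array table. Although the set was proposed as genes of synthesis and uptake, none of the 8 codes for an uptake protein, and genes of uptake are given from a wider list of cholesterol genes. Gene expression was measured on 1 array per mouse in 79 mice, 40 after 1 day and 39 after 5 consecutive days of exposure, in 16 groups of 4 to 6 mice. The smoke effect is given as smoke minus sham, and the genotype effect as βENaC minus wild-type (WT) littermates.

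The βENaC mice overexpress Scnn1b, the β subunit of the epithelial sodium channel, from a transgene driven by an airway club cell promoter, and develop mucus obstruction of the airways. All mice were 5 to 7 weeks old, on a C57BL/6J background, and each group was of 1 sex. Smoke mice received the smoke of 6 unfiltered reference cigarettes per day, and sham mice spent the same time in the chamber in room air. Lungs of all groups were taken 4 h after the last exposure. There were 20 smoke and 20 sham mice at 1 day, and 19 smoke and 20 sham mice at 5 days. Mice of the 1-day and 5-day exposures were separate animals, and anything else that differed between these exposures cannot be told apart from duration.

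Cells make cholesterol from acetyl-CoA through mevalonate. Hmgcs1, Idi1 and Fdps act in the mevalonate arm, and Sqle, Lss and Cyp51 convert squalene to sterols. Srebf2 codes for SREBP2, the transcription factor that switches on these genes when sterols in the endoplasmic reticulum are low, and Insig1, itself a target, holds SREBP2 back when sterols are high. In the lung, cholesterol is a part of surfactant, and alveolar macrophages take it up and export it.

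A promoter of 250 bases before the start was available for 6 of the 8 genes in the RefSeq table (GRCm38.p6). Sqle and Fdps had no entry. The promoters of the 3 genes that were lower after 1 day of smoke are shown because SREBP2 acts through short letters in such promoters. Capitals mark TCACNCCAC and TCACCCCA, forms of the sterol regulatory element that SREBP2 binds, and CCAAT, the box of its partner NF-Y, on either strand (CCAAT reads ATTGG on the other).
Hmgcs1, chr13:119690101-119690350, plus strand: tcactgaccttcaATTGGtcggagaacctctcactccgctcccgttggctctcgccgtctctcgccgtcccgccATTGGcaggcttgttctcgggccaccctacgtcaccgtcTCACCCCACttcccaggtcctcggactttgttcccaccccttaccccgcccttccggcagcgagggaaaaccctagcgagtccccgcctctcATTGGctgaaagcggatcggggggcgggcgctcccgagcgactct
Srebf2, chr15:82147019-82147268, plus strand: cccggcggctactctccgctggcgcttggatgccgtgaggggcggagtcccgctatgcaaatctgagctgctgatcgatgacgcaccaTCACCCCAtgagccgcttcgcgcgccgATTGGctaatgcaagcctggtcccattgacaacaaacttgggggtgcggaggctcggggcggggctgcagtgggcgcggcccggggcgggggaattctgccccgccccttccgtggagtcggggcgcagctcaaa
Insig1, chr5:28071162-28071411, plus strand: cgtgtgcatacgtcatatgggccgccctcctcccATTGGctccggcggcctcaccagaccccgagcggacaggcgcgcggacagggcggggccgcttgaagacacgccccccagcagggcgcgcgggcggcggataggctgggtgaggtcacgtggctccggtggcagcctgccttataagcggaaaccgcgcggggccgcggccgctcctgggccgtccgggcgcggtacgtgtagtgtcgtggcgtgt

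The letters of the sterol regulatory element overlap in Hmgcs1, where 1 stretch starting 137 bases before the gene's start matches both forms, and TCACCCCA lies 162 bases before the start of Srebf2. CCAAT was found in 6 of 6 promoters of these genes, against 33.8% of all 32851 promoters of the same length. The Sp1 box GGGCGG was also in 6 of 6, against 32.7%. TCACCCCA was in 2 of 6 (Hmgcs1 and Srebf2), against 1.34% of all promoters, and TCACNCCAC in 1 of 6, against 1.05%. Among 43 promoters of the other genes in the wider list of cholesterol genes, TCACCCCA was in 1 and TCACNCCAC in 0. CCAAT was in 21 of these 43, GGGCGG in 23 and GCGTG in 18. The E-box CACGTG was in 1 of 6, at 101 bases before the start of Insig1, against 6.02%. GCGTG, the core bound by the smoke-activated AHR, was in 4 of 6 (Idi1, Lss, Cyp51 and Insig1), against 28.2%. TGACNNNGC, the antioxidant response element, was in 0 of 6, against 10.2%. All motifs were searched on both strands, and they were chosen with these sequences at hand. A match describes letters in this window and is not a measured site.

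Levels below are log2 intensities and effects are differences of them, on which scale 1.3-fold is 0.379. Arrays correlated with each other at 0.965 or above, and their medians differed little, from 4.44 to 4.55. Scnn1b was 8.98 ± 0.21 (SD, n = 40) in WT mice, with a highest value of 9.47, and 11.69 ± 0.10 (SD, n = 39) in βENaC mice, with a lowest value of 11.5, so that the genotypes did not overlap. The source names of 13 WT smoke mice call them βENaC, but their titles, genotype labels and Scnn1b levels were those of WT. These 13 include every WT smoke mouse at 5 days. Cyp1a1, the cytochrome induced by smoke, was higher in every smoke mouse than in any sham mouse of the same duration. In whole lung, fewer cells of a type and less RNA per cell cannot be told apart.

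**Figure D1:**
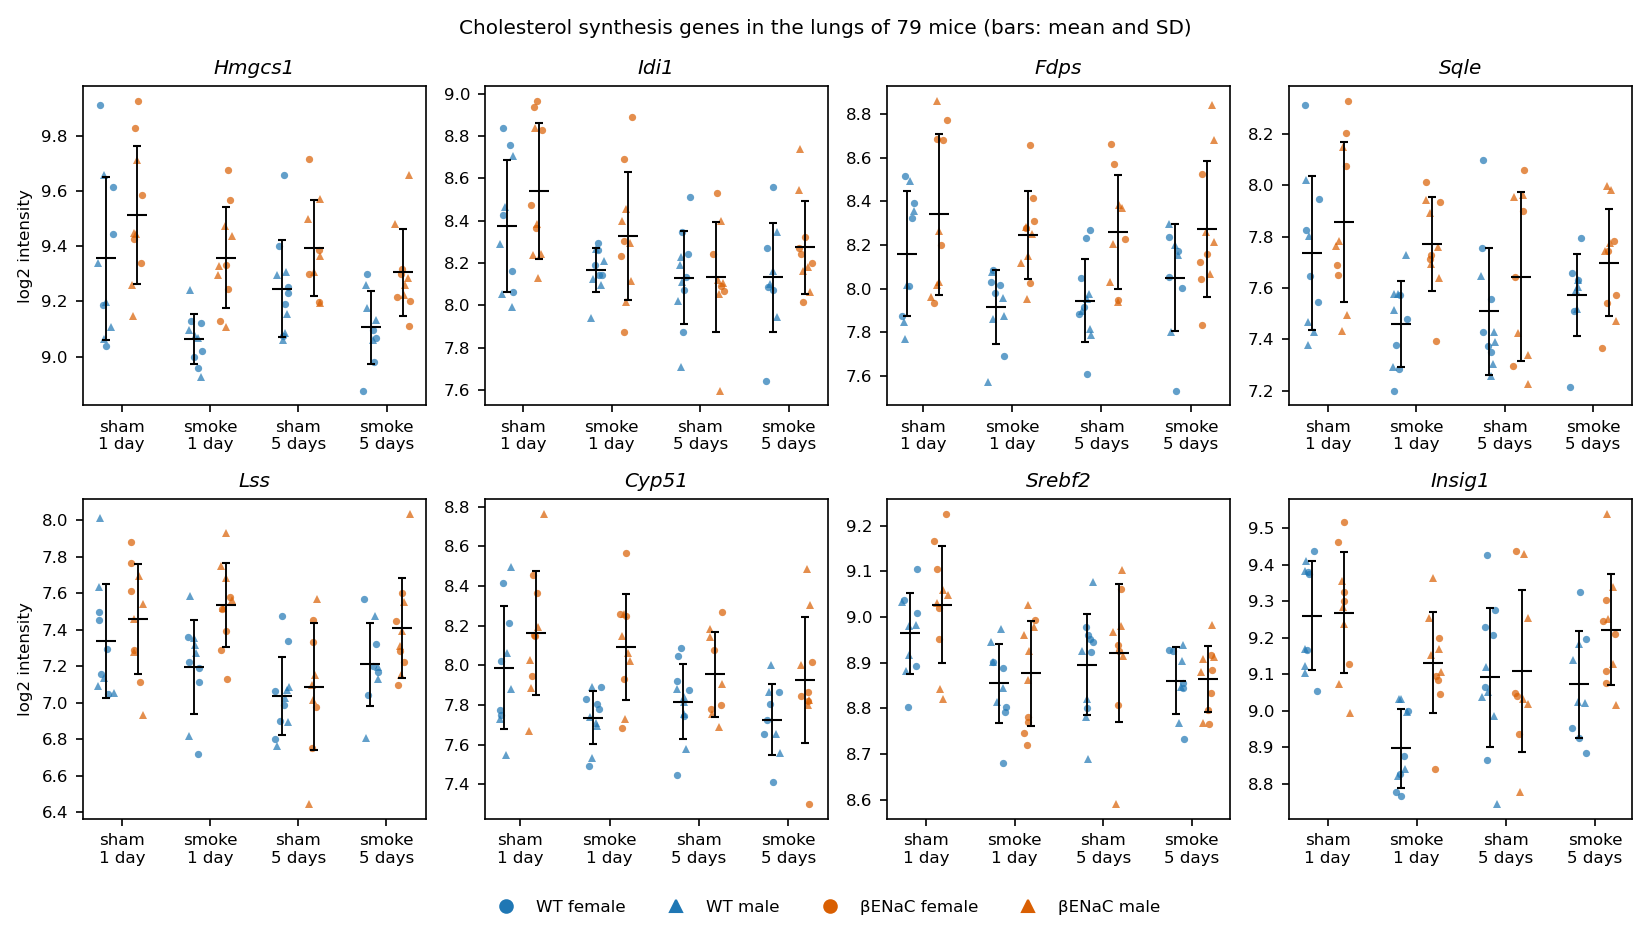
Log2 intensity (y axis, a separate scale for each gene) of the 8 genes in each of 79 mice, grouped on the x axis by exposure and duration, with genotype as colour and sex as symbol, and bars at the mean and SD of each genotype. Insig1 of the WT smoke mice at 1 day sits at 8.76 to 9.03, just below the WT sham mice at 9.05 to 9.44, whereas the other groups of Insig1 overlap.

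Insig1, Srebf2 and Hmgcs1 were lower after 1 day of smoke, and the other 5 genes did not pass the test. A gene passed at an adjusted p below 0.05 in limma, adjusted over all rows. The count of 3 of 8 genes stood against 9.45% of all rows that passed in either direction and 4.43% that were lower. The median difference of the 8 genes was -0.18, and that of all rows was 0.01. None of the 8 differences was as large as 1.3-fold.

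Insig1 showed the largest fall among the 8. In sham mice at 1 day its lowest, median and highest values were 8.99, 9.29 and 9.52, and in smoke mice they were 8.76, 9.03 and 9.36. The groups overlapped, but 19 of 20 smoke mice lay below the sham median and 7 lay below every sham mouse. Insig1 fell by 0.25 on the log2 scale (SE 0.0482, 0.841-fold, adjusted p = 0.000442 in limma).

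Srebf2, the master regulator, varied least among the 8. At 1 day its lowest, median and highest values were 8.80, 9.01 and 9.23 in sham mice and 8.68, 8.87 and 9.03 in smoke mice. Again 19 of 20 smoke mice lay below the sham median, with 7 below every sham mouse. Srebf2 fell by 0.13 on the log2 scale (SE 0.0348, 0.914-fold, adjusted p = 0.0111 in limma).

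Hmgcs1, the cytosolic HMG-CoA synthase, acts early in the mevalonate arm. At 1 day it was 9.04, 9.43 and 9.93 (lowest, median, highest) in sham mice and 8.93, 9.13 and 9.68 in smoke mice. The ranges overlapped widely, with 16 of 20 smoke mice below the sham median and 4 below every sham mouse. Hmgcs1 fell by 0.22 on the log2 scale (SE 0.066, 0.857-fold, adjusted p = 0.0241 in limma). Without the 13 WT mice with a conflicting source name, the difference was -0.20 and the adjusted p was 0.111.

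The other 5 genes also had negative differences at 1 day, whereas 55.7% of all rows were positive. None of the 5 passed after adjustment. Idi1, which isomerises the 5-carbon building block, had a difference of -0.21 (adjusted p = 0.0883 in limma). It passed in 1 of 40 fits that left out 1 mouse (βENaC smoke female, replicate 5, adjusted p = 0.0419), and the largest adjusted p in these fits was 0.141. Under 11 alternative fits its adjusted p ran from 0.0656 to 0.199. The squalene epoxidase Sqle had -0.18 (adjusted p = 0.143), and Fdps, the farnesyl diphosphate synthase, had -0.17 (adjusted p = 0.189). The lanosterol demethylase Cyp51 had -0.16 (adjusted p = 0.25). Lanosterol synthase, Lss, had a difference of -0.03 (adjusted p = 0.884), with 11 of 20 smoke mice below the sham median.

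**Figure D2:**
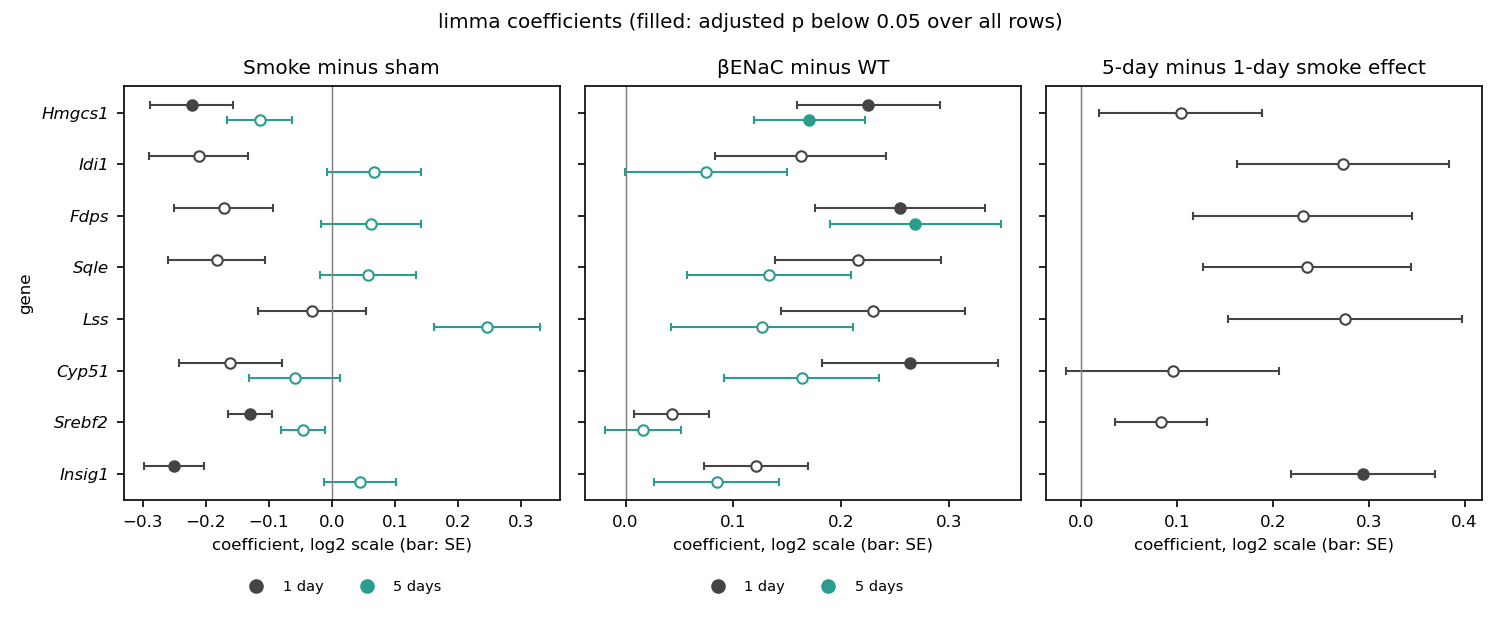
Differences on the log2 scale (x axis) of the 8 genes (y axis) for smoke minus sham and βENaC minus WT at 1 day (dark) and 5 days (green), and for the 5-day minus the 1-day smoke effect, with bars for the SE and filled points for an adjusted p below 0.05. Smoke differences at 1 day are negative for 8 genes, and genotype differences are positive for 8 genes at both durations.

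By genotype, the ranges of Insig1 in WT smoke and WT sham mice at 1 day lay just apart. In 10 WT sham mice at 1 day, its lowest, median and highest values were 9.05, 9.27 and 9.44, and in 10 WT smoke mice they were 8.76, 8.86 and 9.03. No WT smoke mouse reached the lowest WT sham mouse, but the gap from 9.03 to 9.05 was narrow. The share of all rows with ranges apart in this way was not counted. Among βENaC mice Insig1 was 8.99, 9.29 and 9.52 in sham and 8.84, 9.13 and 9.36 in smoke, and these ranges overlapped. Within WT mice Insig1 fell by 0.36 (SE 0.0641, adjusted p = 0.000468 in limma), and it was the 1 of 8 genes that passed, against 3.66% of all rows. Hmgcs1 within WT mice had a difference of -0.29 (adjusted p = 0.0719), and the count of 1 became 2 when 1 WT sham female (replicate 1) was left out. Within βENaC mice 0 of 8 passed in limma, against 3.43% of all rows, and 2 of 8 had an unadjusted p below 0.05 (16.8% of all rows), with a difference for Insig1 of -0.14 (adjusted p = 0.265) and for Srebf2 of -0.15 (adjusted p = 0.0822). That count of 0 became 1 when either of 2 βENaC sham males (replicates 1 and 2) was left out. The difference between the genotypes was itself tested in limma, and 0 of 8 genes passed, against 0.00638% of all rows. At an unadjusted p below 0.05 there was 1 of 8, against 6.98%. At 5 days 0 of 8 passed, against 0 of all rows, and 0 of 8 had an unadjusted p below 0.05, against 3.9%. For Insig1 it was 0.23 (SE 0.0907, unadjusted p = 0.0169, adjusted p = 0.664 in limma), so that a different smoke effect in the genotypes was not shown.

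After 5 days of smoke, 0 of 8 genes passed in limma, against 6.53% of all rows. At an unadjusted p below 0.05 there were 2 of 8, Hmgcs1 and Lss, against 18.2% of all rows. Insig1 was 8.74, 9.05 and 9.44 (lowest, median, highest) in sham mice and 8.88, 9.14 and 9.54 in smoke mice, a difference of 0.04 (adjusted p = 0.768). Its ranges lay almost on top of each other. Srebf2 had a difference of -0.05 (adjusted p = 0.556), with 17 of 19 smoke mice below the sham median. Hmgcs1 had -0.11 (SE 0.0512, adjusted p = 0.209).

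Lss, which closes the sterol rings, stood on the other side. At 5 days it was 6.44, 7.04 and 7.57 in sham mice and 6.80, 7.28 and 8.04 in smoke mice. Of 19 smoke mice, 17 lay above the sham median and 3 above every sham mouse. The difference of 0.25 (SE 0.0842) had an adjusted p of 0.0736 in limma. It passed under 1 of 11 alternative fits, array weights (adjusted p = 0.0459), and the largest adjusted p among the 11 was 0.23. Of 39 fits that left out 1 mouse, it passed in 3 (without βENaC sham male replicate 1, WT sham female replicate 3 or WT smoke male replicate 5). Sqle, Idi1 and Fdps had small positive differences of 0.06, 0.07 and 0.06, and Cyp51 had -0.06.

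The difference between the 5-day and the 1-day smoke effect passed for Insig1 alone among the 8, against 1.3% of all rows. The difference of the effects was 0.29 (SE 0.0748, adjusted p = 0.0233 in limma). It was 0.30 with an adjusted p of 0.104 without the 13 WT mice, which leaves only βENaC smoke mice at 5 days. From 1 to 5 days Insig1 had a difference of -0.16 in sham mice (adjusted p = 0.152 in limma) and of 0.13 in smoke mice (adjusted p = 0.110), and the difference of the effects is the latter minus the former. For the other 7 genes the difference of the effects was also positive, from 0.08 for Srebf2 to 0.28 for Lss, with no adjusted p under the threshold. The median of the 8 was 0.23, and that of all rows was -0.01, with 44.5% of all rows positive.

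The sham mice themselves differed between durations. From 1 to 5 days in sham mice, all 8 differences were negative, whereas 59% of all rows had a positive one. As the 8 genes varied together from mouse to mouse, their signs are not 8 separate results, in this or any other comparison. Idi1 passed at -0.32 (SE 0.0777, adjusted p = 0.0486 in limma), as 1 of 8 against 0.297% of all rows. Idi1 in sham mice was 7.99, 8.41 and 8.97 at 1 day and 7.60, 8.11 and 8.53 at 5 days, and these ranges overlapped. Lss had -0.33 (adjusted p = 0.0663). Among smoke mice 0 of 8 passed in limma, against 8.47% of all rows, with 1 gene, Insig1, at an unadjusted p of 0.0138, against 20.2% of all rows below 0.05. The count within sham mice moved to 0 or 2 in 45 of 79 fits that left out 1 mouse.

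Genotype differences of the 8 genes were small and positive at both durations, against 51.5% of all rows positive at 1 day and 43.2% at 5 days. Hmgcs1, Fdps and Cyp51 were higher in βENaC mice at 1 day, 3 of 8 against 5.87% of all rows and 3.58% that were higher. Hmgcs1 and Fdps were higher at 5 days, 2 of 8 against 10.2% and 4.85%. The median of the 8 differences was 0.22 at 1 day and 0.13 at 5 days, and that of all rows was 0.0024 and -0.01.

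Hmgcs1 at 1 day was 9.11, 9.43 and 9.93 (lowest, median, highest) in βENaC mice and 8.93, 9.11 and 9.91 in WT mice. The ranges overlapped, yet 19 of 20 βENaC mice lay above the WT median. The difference was 0.23 (SE 0.066, adjusted p = 0.0315 in limma). At 5 days Hmgcs1 was 9.11, 9.30 and 9.72 in βENaC mice and 8.88, 9.17 and 9.66 in WT mice, and 18 of 19 βENaC mice lay above the WT median. The difference there was 0.17 (SE 0.0514, adjusted p = 0.0258), and 0.0524 when 1 βENaC sham female (replicate 2) was left out.

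Fdps, a branch point for sterols and prenylated proteins, was 7.93, 8.26 and 8.86 in βENaC mice and 7.57, 8.01 and 8.52 in WT mice at 1 day. Of 20 βENaC mice, 17 lay above the WT median, and the difference was 0.26 (SE 0.0789, adjusted p = 0.045 in limma). At 5 days it was 7.83, 8.21 and 8.84 against 7.53, 7.99 and 8.30, with 7 of 19 βENaC mice above every WT mouse and a difference of 0.27 (SE 0.0795, adjusted p = 0.0227). Cyp51 at 1 day was 7.67, 8.15 and 8.76 in βENaC mice and 7.49, 7.79 and 8.49 in WT mice. Here too 17 of 20 βENaC mice lay above the WT median, with a difference of 0.26 (SE 0.0817, adjusted p = 0.0454).

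These genotype calls lay close to the threshold. The count of 3 at 1 day ranged from 0 to 4 when each mouse was left out in turn, and the call was lost in 25 of 40 such fits for Fdps, 26 of 40 for Cyp51 and 9 of 40 for Hmgcs1. No gene of the 8 passed at either duration without 4 mice that stood apart in an earlier clustering, or without the 13 WT mice. Beside the genotype effect, 4 of 7 alveolar macrophage markers were higher and 1 lower at 1 day. Of all rows 5.87% passed and 3.58% were higher. The mean of the macrophage list lay between 8.37 and 9.47 in βENaC mice and between 8.07 and 8.72 in WT mice. Of 8 alveolar type 2 cell markers, 4 were higher, with list means of 11.5 to 11.8 and 11.4 to 11.7, and 4 of 4 club cell markers were lower. The same counts held at 5 days, where 10.2% of all rows passed and 4.85% were higher. The part of these cells in the genotype effect was not tested.

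Sex did not give a call for any of the 8 genes in limma, with 0 of 8 at 1 day against 9.89% of all rows and 0 of 8 at 5 days against 0.616%. At an unadjusted p below 0.05 these counts were 1, against 22.2% of all rows, and 0, against 11.3%. The smoke effect in males minus that in females was positive for the 8 genes at both durations, and for 52.5% and 51.5% of all rows. It ran from 0.03 to 0.34 after 1 day of smoke, and after 5 days its range was 0.08 to 0.32. In limma 0 of 8 passed at 1 day (0.00638% of all rows) and 0 of 8 at 5 days (0 of all rows), while 3 of 8 and 2 of 8 had an unadjusted p below 0.05 (6.23% and 3.51%). The smoke effect at 5 days gave 0 of 8 within WT mice (2.16% of all rows) and 0 of 8 within βENaC mice (1.81%) in limma. At an unadjusted p below 0.05 these were 0 (12.8%) and 1 (12.6%).

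Most of the variation in these genes lay between mice of the same group. After adjustment for the number of groups, the 16 groups took between 17.9% (Cyp51) and 31.9% (Insig1) of the variance of the 8 genes, compared with 91.0% for Cyp1a1 and 99.2% for Scnn1b. The SD within groups ran from 0.102 for Srebf2 to 0.276 for Lss. Over all mice Hmgcs1 ranged from 8.88 to 9.93, Lss from 6.44 to 8.04 and Srebf2 from 8.59 to 9.23.

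That variation was shared. Over 79 mice the 28 pairs of genes had Pearson's r from 0.416 (Cyp51 with Srebf2) to 0.844 (Sqle with Fdps), with a median of 0.687, and 22 of 28 pairs were above 0.6. Spearman's rho ran from 0.415 to 0.819. With the group means taken out, r ran from 0.328 to 0.840 with a median of 0.71. Cyp51, Sqle, Fdps, Hmgcs1 and Idi1 rose and fell together from mouse to mouse, whereas Srebf2 followed them least. These correlations are descriptions over mice whose arrays, 1 for each, were normalized together.

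**Figure D3:**
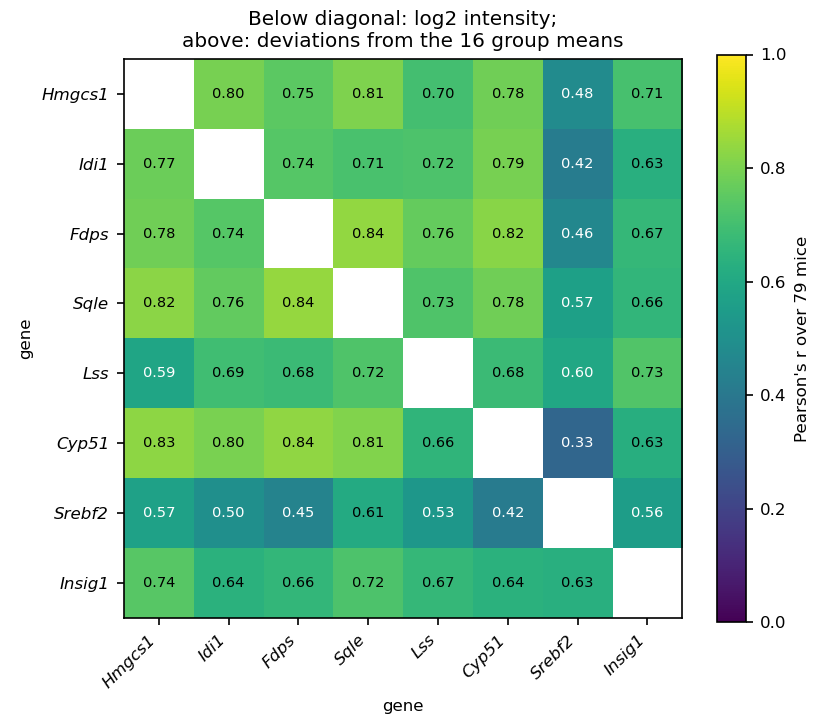
Pearson's r (colour and printed value) over 79 mice for each pair of the 8 genes on both axes, from the log2 intensities below the diagonal and from deviations from the 16 group means above it. The enzyme genes form a block of high values, and the row and column of Srebf2 hold the lowest, down to 0.328.

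Likeness to the set was measured as Pearson's r with the mean centred profile of the 8 genes, or of the other 7 for a gene of the set. Within the set it was 0.899 for Sqle, 0.860 for Hmgcs1, 0.859 for Cyp51, 0.857 for Fdps, 0.832 for Idi1, 0.771 for Insig1, 0.752 for Lss and 0.593 for Srebf2. Outside the set, Fdft1, the squalene synthase, had 0.884. It was among the 10 rows with a symbol and the highest r, together with the sterol enzymes Hsd17b7 (0.826), Nsdhl (0.729) and Dhcr7 (0.667) and the mevalonate decarboxylase Mvd (0.732). The acetoacetyl-CoA synthetase Aacs (0.767) and the fatty acid desaturase Fads2 (0.679) were also among the 10. The median r of all 31350 rows was 0.0006, and 0.479% of rows were above 0.5.

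**Figure D4:**
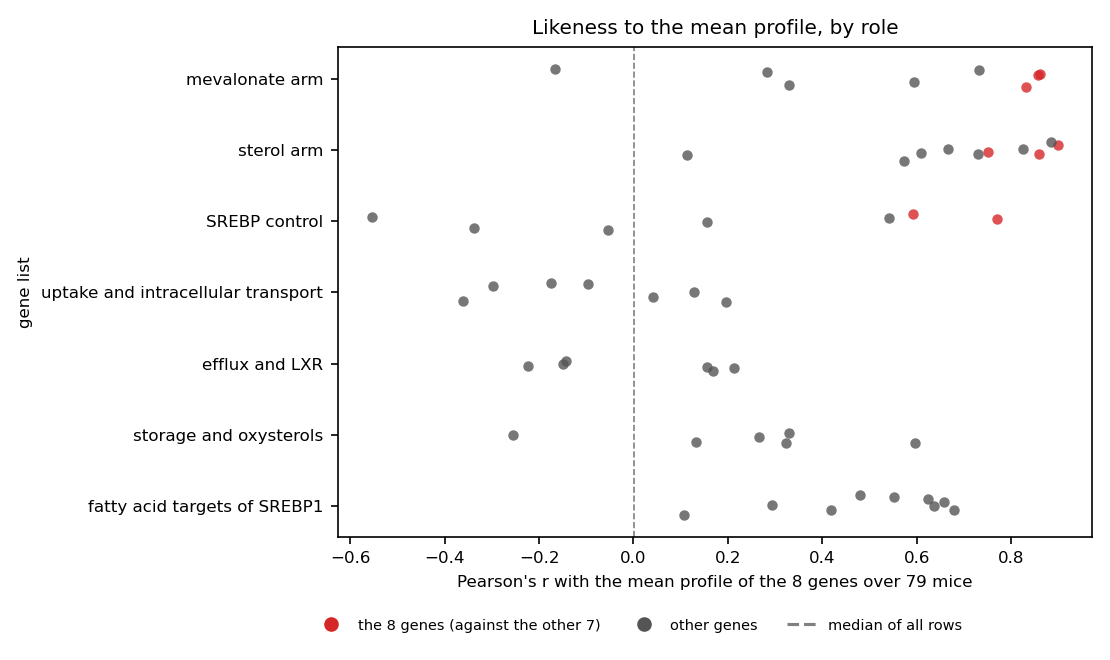
Pearson's r over 79 mice (x axis) with the mean profile of the 8 genes, for each gene of 6 lists of cholesterol metabolism and of a list of fatty acid targets of SREBP1 (y axis), with the 8 genes in red, the other genes in grey and the median of all rows dashed. The sterol arm lies mostly above 0.5, and the 7 genes of the uptake list reach at most 0.196.

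By role, the sterol arm without the 3 genes of the set had a median r of 0.667, with 6 of 7 genes above 0.5. The mevalonate arm without its 3 had 0.330, with 2 of 5 above 0.5. Genes of uptake and intracellular transport had a median of -0.10 with 0 of 7 above 0.5, and genes of efflux and LXR had 0.0062 with 0 of 6. Storage and oxysterol genes had 0.295, and fatty acid targets of SREBP1 had 0.553, with 5 of 9 above 0.5. The mean profile of the 8 genes itself ran, at 1 day, from 0.19 in βENaC sham through 0.09 in βENaC smoke and 0.07 in WT sham to -0.16 in WT smoke mice. At 5 days it was 0.05 in βENaC smoke, -0.01 in βENaC sham, -0.11 in WT smoke and -0.12 in WT sham mice. Except for WT smoke mice at 1 day, where the SD was 0.107, neighbours in this order lay within 1 SD of each other.

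The wider set of 44 cholesterol genes shows where the 8 sit. After 1 day of smoke, 5 of 44 were higher and 7 lower, and without the 8 these counts were 5 and 4 of 36, beside 5.03% of all rows higher and 4.43% lower. The median difference of the 36 was 0.03, beside 0.01 for all rows. In the sterol arm all 10 differences were negative, with a median of -0.14, whereas 55.7% of all rows were positive. Most genes of this arm varied together with the 8 from mouse to mouse, so these signs are not 10 separate results. Of the 10 genes 4 passed, all lower (4.43% of all rows). These were Hsd17b7 at -0.34 (adjusted p = 0.00726 in limma), Dhcr7, the last enzyme of one branch, at -0.31 (adjusted p = 0.0101), Nsdhl at -0.25 (adjusted p = 0.00273) and Sc5d at -0.12 (adjusted p = 0.038). Sc5d did not pass without the 13 WT mice (adjusted p = 0.0688 in limma) or with each array centred on its median (adjusted p = 0.0616 in limma), and was also lost in 15 of 40 fits that left out 1 mouse. None of Lss, Sqle and Cyp51, the genes of the set in this arm, was among the 4.

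Pmvk, the phosphomevalonate kinase, went the other way from Hmgcs1 in the same arm. At 1 day it was 7.00, 7.37 and 8.68 (lowest, median, highest) in sham mice and 7.67, 8.07 and 9.05 in smoke mice, and at 5 days 7.06, 7.31 and 7.91 against 7.68, 7.98 and 8.68. Every smoke mouse lay above the sham median at both durations. The differences were 0.65 (adjusted p = 9.03e-06 in limma) and 0.67 (adjusted p = 5.72e-07), and Pmvk was the only one of the 44 to pass and exceed 1.3-fold for the smoke effect over both genotypes, at either duration. Within WT mice alone at 1 day, Dhcr7 also did so, at -0.43 (adjusted p = 0.0204 in limma).

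In the uptake list 2 of 7 genes were higher at 1 day and none lower, and in the efflux list 2 of 6 were higher, beside 5.03% of all rows. Mylip, a ubiquitin ligase that limits lipoprotein uptake, was higher by 0.19 (adjusted p = 0.0108 in limma) at 1 day and by 0.27 (adjusted p = 0.00508) at 5 days, although the latter did not pass without the 13 WT mice. At 1 day the lysosomal transporter Npc1 was also higher, by 0.15 (adjusted p = 0.00227).

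Abca1, which exports cholesterol to apolipoproteins, was 8.29, 8.59 and 8.85 in sham mice and 8.72, 8.88 and 9.47 in smoke mice at 1 day, with every smoke mouse above the sham median and 12 of 20 above every sham mouse. It was higher by 0.33 (adjusted p = 3.76e-06 in limma) at 1 day and by 0.29 (adjusted p = 7.06e-06) at 5 days. Nr1h3, the sterol sensor LXRα, was higher at 1 day by 0.16 (adjusted p = 0.00749). At 5 days 4 of 44 genes were higher and 1 lower, beside 6.53% of all rows that passed and 3.17% that were higher. They were Pmvk, Mylip, Abca1 and Srebf1 (0.14, adjusted p = 0.0495 in limma) among the higher genes, and the lower gene Soat1 (-0.17, adjusted p = 0.049 in limma). The calls of Srebf1 and Soat1 were lost in 30 and 29 of 39 fits that left out 1 mouse, and with the fold minimum 1 of 44 passed, Pmvk. For the difference of the smoke effects between durations, Insig1 was the only one of the 44 to pass. All 10 sterol arm genes had positive differences, against 44.5% of all rows, and again these are not 10 separate results.

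**Figure D5:**
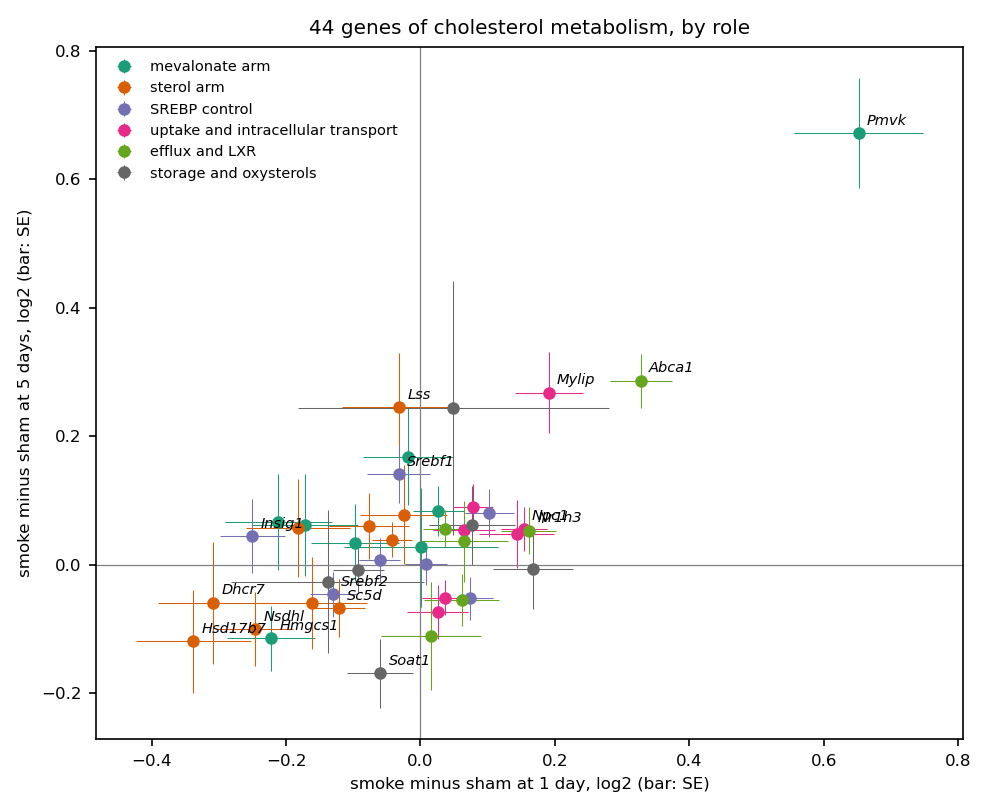
Smoke minus sham on the log2 scale at 1 day (x axis) and 5 days (y axis) for 44 cholesterol genes, coloured by role, with bars for the SE and names for genes that passed at either duration and for Lss. Pmvk stands apart at 0.65 and 0.67, Abca1 and Mylip are higher at both, and the sterol arm lies left of 0 at 1 day.

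Beside the smoke effect at 1 day, 4 of 7 monocyte markers were lower. For this and the next lists, 4.43% of all rows were lower and 5.03% higher. The mean of the monocyte list ran from 7.22 to 8.70 in sham mice and from 7.11 to 7.95 in smoke mice. Of 6 neutrophil markers 1 was lower, with list means of 6.41 to 9.13 and 6.41 to 8.21. Of 4 club cell markers 2 were lower, and of 5 ciliated cell markers also 2, with list means of 7.00 to 7.54 in sham and 6.87 to 7.36 in smoke mice. Of 7 glucocorticoid response genes 4 were higher and none lower, with list means of 7.48 to 8.41 in sham and 7.71 to 9.02 in smoke mice. Of 8 alveolar type 2 cell markers 1 was lower and none higher, with list means of 11.5 to 11.8 in sham and 11.4 to 11.8 in smoke mice. At 5 days, 5 of 7 monocyte markers were lower, against 6.53% of all rows that passed in either direction. Across mice, the mean of the neutrophil list correlated with the mean profile of the 8 genes with r = 0.428 (Spearman's rho 0.287), that of the endothelium list with r = -0.404 (rho -0.453), that of the monocyte list with r = 0.364 (rho 0.191) and that of the alveolar type 2 list with r = 0.330 (rho 0.342). For the other cell lists r lay between -0.251 and 0.129. The part of these cells and of the glucocorticoid response in the smoke effect was not tested.

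The largest genotype differences among the 44 genes were in storage and oxysterol genes. Of the 44, 13 were higher and 0 lower in βENaC mice at 1 day in limma, beside 5.87% of all rows that passed and 3.58% that were higher. At 5 days 13 were higher and 1 lower, beside 10.2% and 4.85%. Ch25h, which makes 25-hydroxycholesterol, was 6.72, 8.17 and 10.9 (lowest, median, highest) in βENaC mice and 6.36, 6.73 and 7.38 in WT mice at 1 day, and 19 of 20 βENaC mice lay above the WT median. At 5 days 17 of 19 βENaC mice lay above every WT mouse. Ch25h was 2.75-fold higher at 1 day (adjusted p = 4.07e-05 in limma) and 3.33-fold higher at 5 days (adjusted p = 4.52e-08). Lipa, the lysosomal acid lipase, was 1.33-fold and 1.44-fold higher (adjusted p = 3.90e-05 and 8.28e-08), and Cyp7b1, an oxysterol hydroxylase, was higher by 0.57 and 0.58 on the log2 scale (adjusted p = 0.0103 and 0.000329).

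Of 6 storage and oxysterol genes, 4 were higher at 1 day (3.58% of all rows) and 5 at 5 days (4.85%), with a median difference of 0.30 and 0.41. In the synthesis arms Dhcr7 was higher by 0.31 at both durations (adjusted p = 0.0133 and 0.0262 in limma), and the call at 5 days was lost without the 4 mice that stood apart. The alveolar macrophage markers given above moved in the same comparison, and their part in these differences was not tested.

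Fatty acid genes are controlled by the related factor SREBP1. After 1 day of smoke 3 of 9 of them passed, all lower, beside 4.43% of all rows, with Fads2 at -0.21 (adjusted p = 0.0117 in limma), Acly, which supplies acetyl-CoA to both pathways, at -0.17 (adjusted p = 0.0252) and Fads1 (adjusted p = 0.00889). At 5 days 3 of 9, Acaca, Scd2 and Acss2, were higher, by 0.24, 0.14 and 0.47, beside 3.17% of all rows. From 1 to 5 days in sham mice all 9 differences were negative, with a median of -0.15, whereas 59% of all rows were positive. In smoke mice the median from 1 to 5 days was 0.017, and 7 of 9 were positive, against 49.4% of all rows.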

How the data were processed

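Total RNA from homogenised right lungs was hybridised to Affymetrix moGene2.1 arrays, 1 array per mouse. Per the methods and labels, the authors checked quality in Affymetrix Expression Console 1.4 and deposited log2 intensities made in Partek 6.6 with RMA, with probes adjusted for sequence and GC content, arrays quantile normalized and probes of a gene joined by median polish, 1 mislabelled sample having been removed. Quantile normalization sets all arrays to nearly the same distribution, so a shift shared by most genes cannot be seen. Signal over background was not analysed here. Precision is limited by the number of arrays.

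The deposited log2 values were used unchanged. Of 31350 rows, 21057 were named through the RefSeq gene table, 780 through the study's supplementary tables, and 9513 had no symbol. Genotype, exposure and sex were the terms of a linear model per duration (lmFit and eBayes of limma 3.58.1, R 4.3.3). Differences of the smoke effect between genotypes, sexes or durations were interaction contrasts of fits that kept the other terms. Adjustment was by Benjamini and Hochberg over all rows, and a gene passed at an adjusted p below 0.05. A second call also required a 1.3-fold difference. The R package for tables (data.table, version 1.17.8), pandas 2.3.3 and matplotlib 3.10.9 in Python 3.11.15 served for reading and drawing. Scripts were tested on simulated data that held known changes.

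The 8 genes, the gene lists, the alternatives and the naming rule were chosen with earlier results of these data known. Named genes were the 8 members, genes of 6 lists of cholesterol metabolism that passed, and the 10 rows with a symbol and the highest likeness. Some genes that these rules would name are not reported here and were left out of the lists and their counts. Where a symbol had several rows, the row with the highest mean was to be used, but each listed gene had 1 row. The alternatives were an ordinary linear model, 1 fit over all mice, 3 further normalizations, omission of the 30% of rows with the lowest means, array weights, the replicate number as a block, a trended robust prior, omission of 4 mice that stood apart in an earlier clustering, omission of 13 mice with conflicting source names, stricter calls and each mouse left out in turn.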

Additional observations from a re-analysis of the deposited data

Results flagged for a closer look

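Of 128 sets of 4 to 6 mice (8 genes in 16 groups), 5 held a mouse farther from the rest than the range of its group allows, and chance flags about 1 in 20 such sets. The 5 values came from 4 mice. In WT smoke females at 1 day, replicate 1 was lowest for Fdps at 7.69 (next 7.98) and for Cyp51 at 7.49 (next 7.78). In βENaC smoke females at 5 days, replicate 4 was lowest for Cyp51 at 7.30 (next 7.82). For Srebf2, replicate 4 of the βENaC smoke females at 1 day was highest at 8.99 (next 8.78), and replicate 6 of the WT sham females at 5 days was lowest at 8.80 (next 8.92). Between durations, the smoke effect differed for Insig1 by 0.29 on the log2 scale (adjusted p = 0.0233 in limma), and for 2 fatty acid genes, Acaca by 0.38 (adjusted p = 0.0114) and Acss2 by 0.56 (adjusted p = 0.00816). None of the 3 passed without the 13 WT mice with a conflicting source name, which leaves only βENaC smoke mice at 5 days.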

How the results depend on the processing

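The falls of Insig1 and Srebf2 after 1 day of smoke passed under every alternative fit and with each mouse left out, with adjusted p up to 0.006 and 0.0281 under the alternative fits. Over all named genes and alternative fits, 907 differences kept direction and side of the threshold, 61 lost the call, 1 gained it (Lss at 5 days) and 0 reversed. The fit without the 13 WT mice has fewer samples, and its only smoke mice at 5 days are βENaC mice. For calls at 5 days or between durations, a label error and the loss of that group cannot be told apart. Outside that fit, 34 lost the call. Otherwise the cause was not tested. The number of arrays limits the smallest difference that can pass.

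Of the 8 genes, the count higher in βENaC mice at 1 day (3) was 1 with an ordinary linear model, median centring or quantile normalization, and 0 without the 4 mice that stood apart or without the 13 WT mice. At 5 days (2) it was 1 in 1 fit over all mice and 0 without the 4 or the 13 mice. The smoke count within WT mice at 1 day (1) was 2 in 1 fit over all mice, that within βENaC mice (0) was 1 with quantile or cyclic loess normalization, array weights or without the 4 mice, and that at 5 days (0) was 1 with array weights. From 1 to 5 days within sham mice (1) it was 2 with quantile or cyclic loess normalization or without the 30% of rows with the lowest means, and 0 without the 13 mice. The difference of smoke effects between durations (1) was 0 without the 13 mice.

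Of 44 cholesterol genes, the smoke count at 5 days (5) was 3 with an ordinary linear model, 2 without the 13 mice, 1 with the 1.3-fold minimum and 3 at an adjusted p below 0.01. At 1 day (12) these stricter calls gave 1 and 7. The genotype count at 1 day (13) was 6 without the 13 mice, 3 with the fold minimum and 3 at 0.01, and at 5 days (14) it was 4, 3 and 8. The difference between durations (1) was 0 under each of these 3.

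Replicate numbers did not pair the mice: deviations from group means correlated by 0.0121 on average for the same number and by -0.0027 for different numbers. With the number as a replicate block, the genotype count of the 8 genes at 1 day was 1, that from 1 to 5 days within sham mice 0 and the smoke count of the 44 genes at 5 days 3.

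Over the fits that left out 1 mouse, counts of the 8 genes ran from 3 to 4 for smoke at 1 day, 0 to 1 at 5 days, 1 to 2 within WT and 0 to 1 within βENaC mice at 1 day, 0 to 4 and 1 to 2 for genotype at 1 and 5 days, and 0 to 2 from 1 to 5 days within sham mice. For the 44 genes, smoke counts ran from 11 to 14 at 1 day and 3 to 6 at 5 days. The small smoke difference of Lss at 1 day (-0.0668 to 0.0062) changed sign. A mean over rows of a symbol was not run, as each gene had 1 row. Without the 13 mice, smoke effects within genotypes at 5 days could not be fitted, and 1 fit over all mice gave no separate difference between durations.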

Other observations

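A gene of fatty acid oxidation ran against the cholesterol profile from mouse to mouse. Cpt1a, which brings long-chain fatty acids into mitochondria, had r = -0.637 with the mean profile of the 8 genes over 79 mice. With the group means taken out, r was -0.754. Both values were the lowest of all 31350 rows. Cpt1a was picked as the extreme of all rows after its values were seen, and these are descriptions over mice whose arrays were normalized together.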
